A study of Homo sapiens with 39 samples.

Results

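The genes described here encode granule proteins of immature myeloid cells: the peroxidase MPO, the serine proteases ELANE, PRTN3 and CTSG, the catalytically inactive protease relative AZU1, the ribonucleases RNASE2, RNASE3 and RNASE6, the lysozyme LYZ and the lipopolysaccharide-binding protein BPI. They were chosen by gene symbol, as the probe sets that the annotation of the array platform pairs with these 10 symbols. Of the 10 listed genes, 9 were measured, by 11 probe sets, among 18132 genes measured in all. RNASE3 was not analysed here, since none of the probe sets with a single symbol carries its name. MPO and LYZ each had 2 probe sets, and the one with the higher mean over all arrays was used for each gene.

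Granule proteins are made mostly in promyelocytes and monocyte precursors, packed into primary (azurophil) or lysosome-like granules, and released against bacteria or into phagosomes. Their genes are controlled by transcription factors such as PU.1, C/EBP proteins and MYB, and transcripts of the proteases fall as myeloid cells mature. U937 is an established human histiocytic lymphoma line of immature monocytic cells and is often used as a model of that stage.

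RNA was measured on Affymetrix 3' IVT arrays in 13 groups of 3 arrays. U937 cells received 10 µM of Pu27 for 24, 48 or 72 h, 10 µM of Pu9- for 24, 48 or 72 h, or 10 µM of Pu5- for 24, 48 or 72 h, and untreated cells were collected at 0, 24, 48 and 72 h. Pu27, Pu9- and Pu5- are G-rich oligonucleotides related to the G-quadruplex element of the MYC promoter, of which the labels give Pu9- the shortest and Pu5- the longest sequence. No oligonucleotide of an unrelated sequence was among the groups, so an effect of any oligonucleotide cannot be told apart from an effect of the sequence in a comparison with untreated cells. All groups are 1 cell line.

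The labels describe 3 repeat experiments and say no more of them, so each p-value measures only how these samples spread, which may be technical. All values are RMA log2 values, in which 1 unit is a doubling, and each probe set has its own scale, so levels of different genes are not compared. Array medians lay between 5.82 and 5.94. A change was called where the Benjamini-Hochberg adjusted p of limma over all 18132 genes was under 0.05. A value after ± is limma's standard error, or an SD where that is written. In such bulk samples, fewer cells of a type and less RNA per cell cannot be told apart.

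Of 13 listed myeloid markers of the U937 type 11 were measured, and their mean values varied widely. The aminopeptidase ANPEP was at 10.15, the kinase LYN at 9.91, the endosomal protein CD68 at 8.76, FCGR1A at 7.73, CSF3R at 7.45, ITGAX at 7.34 and CD4 at 6.79. The receptor CSF1R was at 5.63, the costimulator CD86 at 5.33, the PU.1 gene SPI1 at 5.29 and the monocyte receptor CD14 at 3.46. Since probe sets have their own scales, these values describe the cells and do not rank the genes. The group means of the median background probe were 3.10 to 3.20. The 5 measured T cell markers lay between 3.83 and 5.20. Of 4 measured B cell markers, PAX5 was at 9.13, CD79A at 6.06, CD79B at 5.76 and MS4A1 at 3.86. The erythroid markers HBB and ALAS2 were at 7.33 and 5.68. Measured epithelial markers lay between 3.21 and 5.45, and mast and basophil cell markers between 3.14 and 3.92. The 4 eosinophil granule genes were at 5.04 (EPX), 5.01 (PRG3), 4.04 (PRG2) and 3.43 (CLC). None of the myeloid, T cell, B cell or eosinophil genes passed the test with any oligonucleotide against untreated cells.

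The promoter sequences of the ribonuclease and protease genes whose transcripts changed below are printed first, to show where letters of the known factor motifs lie. RefSeq's promoter table (GRCh38.p14) held 6 of the 10 genes, namely PRTN3, AZU1, CTSG, RNASE2, RNASE3 and RNASE6. The sequences are the 250 bases before the start that the table gives, 5' to 3' on the gene's strand, which is the plus strand for each. Capitals mark matches, on either strand, to the PU.1 core GAGGAA, the ETS core GGAAGT, the C/EBP motif TTGCNNAA and the MYB core CAACNG.
RNASE6, chr14:20781018-20781267: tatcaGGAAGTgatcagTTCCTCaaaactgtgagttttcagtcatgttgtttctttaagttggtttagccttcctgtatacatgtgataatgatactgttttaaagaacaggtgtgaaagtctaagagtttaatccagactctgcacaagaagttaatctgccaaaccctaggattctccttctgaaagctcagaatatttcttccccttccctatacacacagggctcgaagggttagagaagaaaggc
RNASE2, chr14:20955237-20955486: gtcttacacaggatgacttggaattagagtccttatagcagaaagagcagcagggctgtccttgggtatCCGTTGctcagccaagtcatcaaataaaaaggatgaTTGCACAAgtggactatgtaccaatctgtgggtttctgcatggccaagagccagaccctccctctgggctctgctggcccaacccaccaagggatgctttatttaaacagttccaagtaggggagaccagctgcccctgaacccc
AZU1, chr19:827587-827836: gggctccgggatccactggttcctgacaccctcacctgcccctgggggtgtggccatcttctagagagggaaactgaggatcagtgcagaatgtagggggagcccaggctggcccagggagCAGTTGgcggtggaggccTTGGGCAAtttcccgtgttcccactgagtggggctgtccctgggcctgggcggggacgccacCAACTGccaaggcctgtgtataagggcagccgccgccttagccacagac
PRTN3, chr19:840749-840998: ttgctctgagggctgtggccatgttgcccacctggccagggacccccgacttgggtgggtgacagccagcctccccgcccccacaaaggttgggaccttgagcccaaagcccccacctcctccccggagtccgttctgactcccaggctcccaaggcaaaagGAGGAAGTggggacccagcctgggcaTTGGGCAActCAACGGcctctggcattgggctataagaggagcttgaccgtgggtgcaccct

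The RNASE6 window held GGAAGT and, on the minus strand, GAGGAA, and no match to the C/EBP or MYB letters. RNASE2 and AZU1 had the opposite content, each with TTGCNNAA and CAACNG (1 match to the MYB letters in RNASE2 and 2 in AZU1) and without GAGGAA or GGAAGT. PRTN3 held all 4 motifs, with GAGGAA and GGAAGT overlapping. Of the 2 windows not printed, CTSG held the same motifs as RNASE6, and RNASE3 the same as RNASE2. CTSG passed in none of the comparisons below, and a link between motifs and changes of transcripts was not tested. Among 35114 promoter windows of the same length, 23.6% held GAGGAA, 19.5% GGAAGT, 9.05% TTGCNNAA and 27.0% CAACNG, so each match alone is common. Of the RNASE6 window 198 of the 250 bases lie inside the annotated gene, which begins at 20781070, and 52 lie before it, whereas none of the RNASE2, AZU1 and PRTN3 windows overlaps its gene. A G-quadruplex motif (4 runs of at least 3 guanines separated by 1 to 7 bases, either strand) was in none of the 6 windows and in 23.5% of all windows. Matches are descriptions of letters, and binding was not measured.

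The first comparison asked whether each oligonucleotide changed granule protein transcripts against untreated cells of the same time. With Pu27, RNASE6, RNASE2 and BPI were higher at 72 h than in untreated cells of that time. The other 6 members did not pass the test. A rise or fall with an oligonucleotide, here and below, is a difference from untreated cells of the same time. With Pu9- and with Pu5-, no member passed at any time. The 3 genes that rose encode a ribonuclease with antimicrobial activity (RNASE6), the eosinophil-derived neurotoxin (RNASE2) and a protein that binds and neutralises bacterial lipopolysaccharide (BPI). The count of 3 of 9 members at 72 h with Pu27, all higher, stands beside 5.08% of all genes called in that comparison, and 2.94% of all genes called higher. The median difference was 0.14 over the 9 members and 0.04 over all genes, and 5 of 9 members had a positive difference.

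RNASE6 (chromosome 14, 20781070 to 20782467, GRCh38.p14) showed the largest difference of the 9 members. Its values at 72 h were 7.73, 7.59 and 7.32 with Pu27, against 6.15, 5.41 and 6.09 in untreated cells. Every Pu27 array at 72 h was above every untreated array of that time, and above every other array of the study save 1 at 48 h with Pu27. The difference was 1.66 ± 0.24, a 3.17-fold rise (95% interval 1.17 to 2.15 log2, adjusted p = 4.8e-05). At 48 h RNASE6 had 7.44, 6.90 and 6.65 with Pu27, against 6.47, 5.56 and 5.93 in untreated cells. These did not overlap, but the difference of 1.01 ± 0.24 missed the threshold (adjusted p = 0.079). With the replicate number as a block the same difference had an adjusted p of 0.00039. At 24 h the values of 7.14, 6.44 and 6.49 with Pu27 overlapped those of 6.75, 6.17 and 6.37 in untreated cells (difference 0.26 ± 0.24).

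BPI (chromosome 20, 38304156 to 38337505) had 6.20, 6.43 and 6.13 at 72 h with Pu27, against 5.23, 5.03 and 4.88 in untreated cells. The groups were apart, and the rise was 1.21 ± 0.15, or 2.31-fold (0.89 to 1.52 log2, adjusted p = 6.5e-06). At 48 h the values were 5.30, 5.86 and 5.10 with Pu27, against 4.98, 4.97 and 4.69 in untreated cells. Again no arrays overlapped, and the difference was 0.54 ± 0.15 (adjusted p = 0.24). At 24 h BPI had 4.51, 4.58 and 4.97 with Pu27, against 4.84, 4.67 and 4.94 in untreated cells, which overlapped, with a difference of -0.13 ± 0.15. The BPI probe set is dim, with a mean over all arrays of 5.15, above those of 32.6% of genes.

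RNASE2 (chromosome 14, 20955487 to 20956436) had the smallest of the 3 rises, which was not a rise over time. RNASE2 means with Pu27 were 10.90 at 24 h, 10.85 at 48 h and 9.98 at 72 h, against 10.62 in untreated cells at 0 h. At 72 h it had 10.12, 9.98 and 9.84 with Pu27, against 9.38, 9.49 and 9.53 in untreated cells. The rise of 0.51 ± 0.10 was 1.43-fold (0.32 to 0.71 log2, adjusted p = 0.0011). At 48 h RNASE2 had 10.92, 10.83 and 10.81 with Pu27, against 10.58, 10.45 and 10.46 in untreated cells. At 24 h it had 10.95, 10.85 and 10.91 with Pu27, against 10.57, 10.70 and 10.80 in untreated cells. The groups did not overlap at either of these times, with differences of 0.36 ± 0.10 (adjusted p = 0.18) and 0.21 ± 0.10 (adjusted p = 0.83). A second RNASE2 probe set is paired with 2 symbols and was left out.

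**Figure D1:**
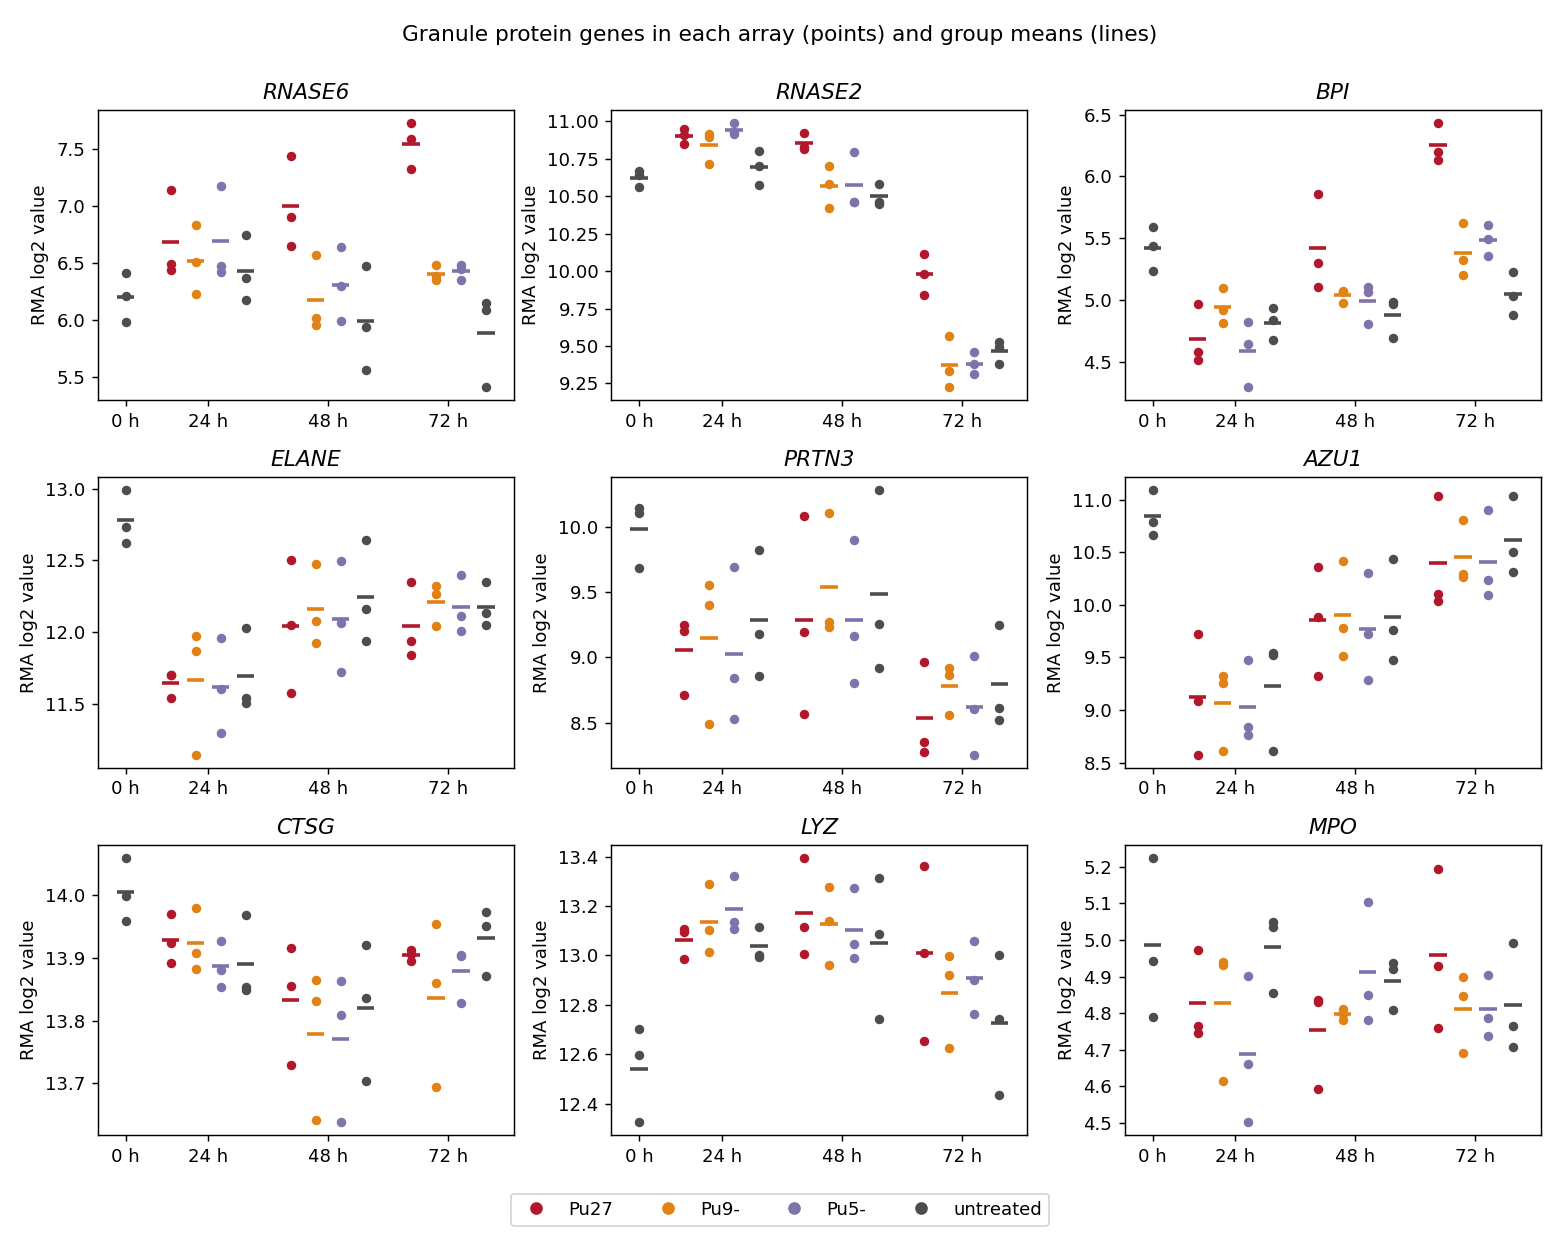
RMA log2 values of the 9 measured genes in each of the 39 arrays, by hours in culture (x axis), with 1 point per array, a line at each group mean of 3 arrays, and a y axis of its own for each gene. RNASE6, RNASE2 and BPI with Pu27 at 72 h lie above every other group of that time, whereas the groups of the other 6 genes lie close together within each time.

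At the earlier times the test called few genes of any kind. With Pu27, limma called 0 of 9 members at 24 h (0.0662% of all genes; 1 member at an unadjusted p under 0.05) and 0 of 9 at 48 h (0.193%; 3 members). The percentages are for the adjusted p. The share of all genes at an unadjusted p under 0.05 was not counted, here or below, so those counts have no share to stand beside. Averaged over the 3 times, with 9 arrays in each arm, Pu27 raised RNASE6 by 0.98 ± 0.14 (adjusted p = 2.8e-05), BPI by 0.54 ± 0.09 (0.00021) and RNASE2 by 0.36 ± 0.06 (7.7e-05), which is 3 of 9 members beside 3.98% of all genes (2.79% higher). The rises of all 3 genes at 72 h and in the mean passed in every alternative setting tried, including each fit without 1 array.

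An RNA quality measure of the arrays, that of ACTB, had its highest mean of the 13 groups in the same group. The 3' minus 5' difference of the ACTB control probe sets was 2.24 ± 0.08 at 72 h with Pu27, against 2.05 ± 0.07 in untreated cells of that time (SD, n = 3 each). At 72 h it was 2.10 ± 0.19 with Pu9- and 2.04 ± 0.11 with Pu5- (SD). The GAPDH difference was 0.61 ± 0.10 at 72 h with Pu27, against 0.51 ± 0.05 in untreated cells (SD), and its highest group mean was 0.62, with Pu9- at 48 h. With the ACTB difference as a covariate the 3 genes still passed at 72 h.

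The serine proteases showed no call with Pu27. ELANE, neutrophil elastase, had 11.84, 11.94 and 12.35 at 72 h with Pu27, against 12.13, 12.05 and 12.35 in untreated cells (difference -0.14, 95% interval -0.59 to 0.32). PRTN3, proteinase 3, had 8.35, 8.28 and 8.97, against 8.61, 8.52 and 9.25 (-0.26, -1.0 to 0.48). In both genes the arrays of the 2 groups overlapped. Between arrays of the same replicate number PRTN3 had differences of -0.26, -0.24 and -0.28 with Pu27, all below 0, and the difference passed in no setting tried, the replicate block included. AZU1, which encodes azurocidin, had 10.04, 10.10 and 11.04 with Pu27, against 10.50, 10.31 and 11.04 in untreated cells (-0.22, -0.90 to 0.46). CTSG, cathepsin G, had 13.89, 13.91 and 13.91, against 13.87, 13.95 and 13.97 (-0.03, -0.19 to 0.13). The CTSG interval is narrow, and its 13 group means spanned 13.77 to 14.01, and whether its probe set still responds to more RNA at that level was not tested.

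LYZ and MPO did not pass either. LYZ, the lysozyme that cleaves bacterial cell walls, had 13.36, 13.01 and 12.65 at 72 h with Pu27, against 13.003, 12.74 and 12.44 in untreated cells, a difference of 0.28 ± 0.15 (adjusted p = 0.34). Its second probe set differed by 0.44 ± 0.22 (adjusted p over all probe sets 0.31). MPO, the enzyme that makes hypochlorous acid, had 5.19, 4.93 and 4.76 with Pu27, against 4.71, 4.76 and 4.99 in untreated cells, a difference of 0.14 ± 0.12 (adjusted p = 0.61). Its 13 group means stayed between 4.69 and 4.99, and those of its second probe set between 4.04 and 4.36. Both MPO probe sets are dim, with means over all arrays above those of 28.4% and 18.3% of genes. Whether they detected MPO transcript in these cells was not tested.

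With Pu9- limma called 0 of 9 members at 24 h (0.0165% of all genes), 48 h (0.0165%), 72 h (0.96%) and in the mean (0.0882%), and 0, 0, 2 and 1 of them had an unadjusted p under 0.05. With Pu5- it called 0 of 9 at 24 h (0.0165%), 48 h (0.0165%), 72 h (0.778%) and in the mean (0.254%), with 2, 0, 2 and 1 at an unadjusted p under 0.05. With the replicate number as a block in limma, RNASE6 passed in the mean with Pu5-, higher by 0.37 (adjusted p = 0.035). RNASE6 at 72 h had 6.38, 6.48 and 6.35 with Pu9- and 6.45, 6.48 and 6.35 with Pu5-. Each of these arrays was above the untreated arrays of that time given above, but the differences of 0.52 ± 0.24 (adjusted p = 0.34) and 0.54 ± 0.24 (adjusted p = 0.42) missed the threshold. BPI at 72 h had 5.62, 5.32 and 5.20 with Pu9- and 5.49, 5.61 and 5.35 with Pu5-. Its differences from untreated cells were 0.34 ± 0.15 (adjusted p = 0.34) and 0.44 ± 0.15 (adjusted p = 0.24). RNASE2 at 72 h had 9.57, 9.34 and 9.23 with Pu9- and 9.38, 9.46 and 9.31 with Pu5-, with differences of -0.09 ± 0.10 and -0.08 ± 0.10. At 24 h RNASE2 had 10.93, 10.91 and 10.99 with Pu5-, all above the untreated arrays of that time, as with Pu27. With Pu9- it had 10.72, 10.90 and 10.92, which overlapped them. The differences at 24 h were 0.25 with Pu5- and 0.15 with Pu9-, and neither passed. These comparisons share the untreated arrays with those of Pu27.

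**Figure D2:**
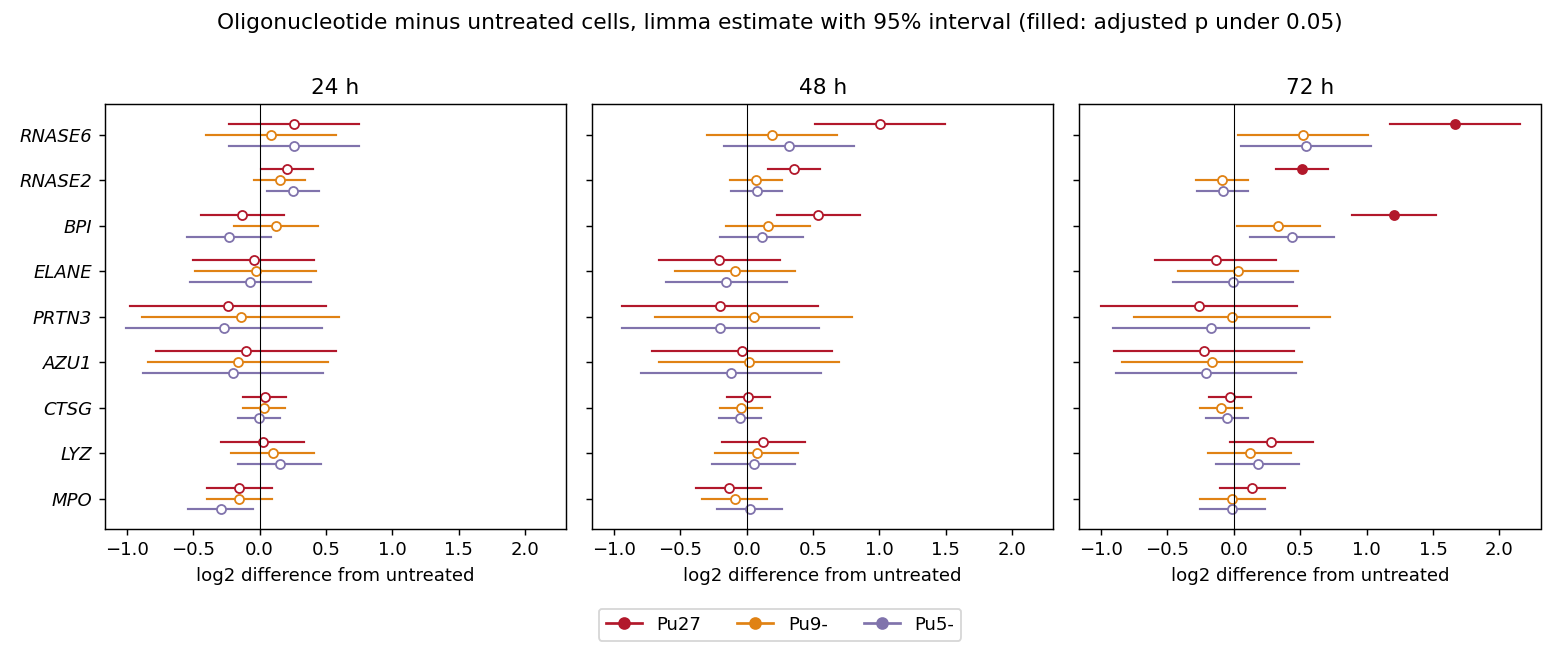
Differences between cells with each oligonucleotide and untreated cells of the same time (x axis, log2) for the 9 measured genes (rows), as limma estimates with 95% intervals, with filled points for an adjusted p under 0.05. The filled points are RNASE6, RNASE2 and BPI with Pu27 at 72 h.

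The oligonucleotides were then compared with each other at matched dose and time, in 3 pairs. At 72 h RNASE2, RNASE6 and BPI were higher with Pu27 than with Pu9-, 3 of 9 members beside 1.51% of all genes (0.96% higher). They were also higher with Pu27 than with Pu5-, 3 of 9 beside 0.248% of all genes (0.215% higher). For all 3 genes, every Pu27 array at 72 h was above every Pu9- and every Pu5- array of that time. These genes were picked by the test on the same arrays. The share of all genes whose arrays did not overlap was not counted, here or in the other comparisons.

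Against Pu9- at 72 h, Pu27 was higher by 1.14 ± 0.24 for RNASE6 (adjusted p = 0.0097), 0.87 ± 0.15 for BPI (0.0019) and 0.60 ± 0.10 for RNASE2 (0.00050). The RNASE6 call was lost without any of 3 arrays, Pu27 replicate 1 (adjusted p = 0.085), Pu9- replicate 2 (0.051) or Pu9- replicate 3 (0.051). Against Pu5- at 72 h, Pu27 was higher by 1.12 ± 0.24 for RNASE6 (adjusted p = 0.027), 0.77 ± 0.15 for BPI (0.017) and 0.60 ± 0.10 for RNASE2 (0.0017). Here the RNASE6 call was lost without any of 5 of the 6 arrays, at adjusted p-values of 0.085 to 0.18, and held without Pu27 replicate 3. The BPI call was lost without Pu27 replicate 1 (0.056) or replicate 2 (0.13) or Pu5- replicate 3 (0.15). The RNASE2 calls held without any single array. With limma on the compared groups alone, RNASE2 (adjusted p = 0.16) and BPI (0.056) lost the call against Pu9-, and RNASE2 (0.19) and BPI (0.074) lost it against Pu5-. RNASE6 lost the call against Pu5- where arrays were shifted to a common median (0.058).

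At 48 h the same genes were higher with Pu27 in value, without passing the test. RNASE6 had 7.44, 6.90 and 6.65 with Pu27, against 6.57, 6.02 and 5.95 with Pu9-, a difference of 0.82 ± 0.24 (adjusted p = 0.47, and 0.0091 with the replicate number as a block). Against 6.64, 6.30 and 5.99 with Pu5- it was 0.69 ± 0.24. In each case all Pu27 arrays were above the others. At 48 h limma called 0 members between Pu27 and Pu9- (0.0662% of all genes) and 0 between Pu27 and Pu5- (0.0165%), with 3 members at an unadjusted p under 0.05 in each. At 24 h it called 0 members and 0 genes in either pair, and 0 members had an unadjusted p under 0.05.

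Over the mean of the times, Pu27 exceeded Pu9- for RNASE6 by 0.71 ± 0.14 (adjusted p = 0.0039) and for RNASE2 by 0.32 ± 0.06 (0.0012), 2 of 9 members beside 1.38% of all genes (1.03% higher), while BPI differed by 0.33 ± 0.09 (adjusted p = 0.051). Pu27 exceeded Pu5- for BPI by 0.43 ± 0.09 (0.020) and for RNASE2 by 0.28 ± 0.06 (0.013), 2 of 9 beside 0.248% (0.237% higher), while RNASE6 differed by 0.60 ± 0.14 (adjusted p = 0.051). The BPI call against Pu5- was lost without Pu27 48 h replicate 2 (0.061), Pu27 72 h replicate 2 (0.060), Pu5- 48 h replicate 1 (0.057) or Pu5- 72 h replicate 3 (0.060), and with limma on the compared groups alone (0.13). The RNASE2 call against Pu5- was lost with the compared groups alone (0.056) and with arrays shifted to a common median (0.066). With the replicate number as a block, BPI against Pu9- (adjusted p = 0.032) and RNASE6 against Pu5- (0.00042) passed. The mean RNASE6 difference from Pu5- was 0.68, 0.57 and 0.55 within replicates 1, 2 and 3. However, same-numbered arrays did not deviate together in every pair at 24 h for either comparison. For Pu27 and Pu5- this was also so at 72 h, where deviations correlated at r = -0.01, 0.12 and 0.25 for replicates 1, 2 and 3. Pu9- and Pu5- were not told apart for any member in the mean or at a single time (0 of 9 each, 0% of all genes in the mean and at 24 and 48 h and 0.0496% at 72 h; 1 member, BPI at 24 h, had an unadjusted p under 0.05). Their mean difference was -0.11 for RNASE6 (95% interval -0.39 to 0.18), 0.10 for BPI (-0.08 to 0.28) and -0.04 for RNASE2 (-0.15 to 0.08).

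A moderated F test asked whether an oligonucleotide's effect differed between the 3 times. BPI with Pu27 was the 1 member that passed (F = 18.6, adjusted p = 0.011), beside 0.0441% of all genes. Its effect was -0.13 at 24 h, 0.54 at 48 h and 1.21 at 72 h, and the effect at 72 h exceeded that at 24 h by 1.34 ± 0.22. The call was lost without untreated 24 h replicate 3 (adjusted p = 0.056), untreated 72 h replicate 3 (0.066), Pu27 24 h replicate 1 (0.065) or Pu27 72 h replicate 2 (0.075), and where limma was run on the compared groups alone (0.066). RNASE6 with Pu27 had effects of 0.26, 1.01 and 1.66 in the same order of times (F = 8.55, adjusted p = 0.19, and 0.0046 with the replicate block). RNASE2 had 0.21, 0.36 and 0.51 (F = 2.51, adjusted p = 0.71). With Pu9- and Pu5- the test called 0 of 9 members (0.00552% and 0.0441% of all genes).

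Untreated cells were next compared over time in culture, a comparison of cells at each later time with those at 0 h. At 24 h against 0 h AZU1, ELANE and BPI fell and LYZ rose, 4 of 9 members beside 28.6% of all genes called (14.6% lower and 14% higher). At 72 h against 0 h RNASE2 and PRTN3 fell, 2 of 9 beside 15.6% (7.99% lower). CTSG, MPO and RNASE6 passed in no comparison of untreated cells in the main fit.

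AZU1 (chromosome 19, 827837 to 832018) had 11.09, 10.78 and 10.66 at 0 h, 9.54, 8.61 and 9.53 at 24 h, 9.47, 9.76 and 10.43 at 48 h, and 10.50, 10.31 and 11.04 at 72 h. The fall at 24 h was 1.62 ± 0.33 (3.07-fold, adjusted p = 0.00022), and its values at 72 h overlapped those at 0 h (difference -0.23, 95% interval -0.91 to 0.45). ELANE (chromosome 19, 852303 to 856243) had 12.99, 12.73 and 12.62 at 0 h, 11.54, 11.51 and 12.03 at 24 h, 11.94, 12.16 and 12.65 at 48 h, and 12.13, 12.05 and 12.35 at 72 h. Its fall at 24 h was 1.09 ± 0.22 (2.13-fold, adjusted p = 0.00022) and the difference at 72 h was -0.60 ± 0.22, where the groups did not overlap but the test was missed (adjusted p = 0.064).

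PRTN3 (chromosome 19, 840999 to 848175) lies between AZU1 and ELANE in the genome and had another course. Its values were 9.69, 10.15 and 10.11 at 0 h, 9.18, 8.86 and 9.82 at 24 h, 8.92, 9.25 and 10.28 at 48 h, and 8.61, 8.52 and 9.25 at 72 h. The difference of -0.69 ± 0.36 at 24 h did not pass (adjusted p = 0.17), and the fall at 72 h was 1.19 ± 0.36 (2.28-fold, adjusted p = 0.022). That call was lost without any of 4 arrays, 0 h replicate 2 or 3 or 72 h replicate 1 or 2, at adjusted p-values of 0.073 to 0.11. Over the 13 group means, AZU1 correlated with ELANE at r = 0.89, with PRTN3 at -0.06, and PRTN3 with ELANE at 0.38; the points share arrays, and these are descriptions.

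RNASE2 was level until 48 h and low at 72 h. It had 10.56, 10.67 and 10.64 at 0 h, 10.57, 10.70 and 10.80 at 24 h, 10.58, 10.45 and 10.46 at 48 h, and 9.38, 9.49 and 9.53 at 72 h. The fall at 72 h was 1.16 ± 0.10 against 0 h (2.23-fold, adjusted p = 2.0e-09) and 1.03 ± 0.10 against 48 h (2.04-fold, adjusted p = 4.1e-09). With Pu27 the RNASE2 arrays at 72 h were thus above untreated cells of that time and below every array of the earlier times.

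The remaining members changed less in untreated cells. BPI had 5.59, 5.24 and 5.44 at 0 h, 4.84, 4.67 and 4.94 at 24 h, 4.98, 4.97 and 4.69 at 48 h, and 5.23, 5.03 and 4.88 at 72 h. Its fall at 24 h was 0.61 ± 0.15 (adjusted p = 0.0024). LYZ (chromosome 12, 69348381 to 69354234) had 12.33, 12.60 and 12.70 at 0 h, 13.001, 13.12 and 12.99 at 24 h, 13.31, 13.09 and 12.74 at 48 h, and 13.003, 12.74 and 12.44 at 72 h. It rose by 0.49 ± 0.15 at 24 h (adjusted p = 0.013), a call lost without 0 h replicate 1 (0.094) or 24 h replicate 2 (0.052). The second LYZ probe set had means of 11.590 at 0 h, 12.20 at 24 h, 12.05 at 48 h and 11.585 at 72 h. At 48 h against 0 h LYZ was higher by 0.51 ± 0.15 (adjusted p = 0.047) and BPI lower by 0.54 ± 0.15 (0.034), 2 of 9 members beside 5.18% of all genes (3.04% higher and 2.14% lower). Each of these 2 calls was lost without any of 5 of the 6 arrays, at adjusted p-values of 0.051 to 0.26 for LYZ and 0.053 to 0.14 for BPI. RNASE6 had 6.41, 5.98 and 6.21 at 0 h and 6.15, 5.41 and 6.09 at 72 h, which overlapped.

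Between consecutive times, limma called 0 of 9 members at 48 h against 24 h (22.5% of all genes; 1 member, ELANE, at an unadjusted p under 0.05). At 72 h against 48 h it called 1, RNASE2, which was lower (17.4% of all genes, 9.44% lower). With the replicate number as a block, PRTN3 differed by -0.69 (adjusted p = 0.021) and AZU1 by 0.73 (adjusted p = 0.034) at 72 h against 48 h, both missed without the block (0.23 and 0.15).

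**Figure D3:**
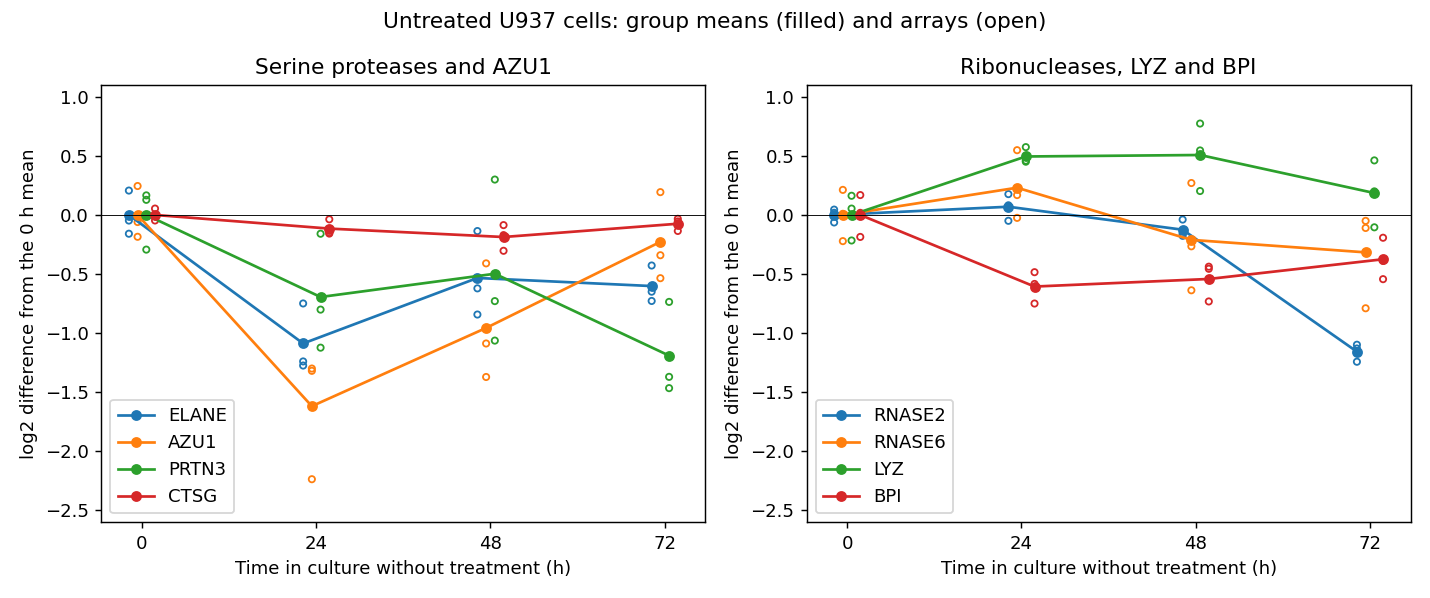
Differences from the 0 h mean in untreated cells (y axis, log2) against hours in culture (x axis), with filled points for means of 3 arrays and open points for single arrays; the left panel shows the serine proteases and AZU1, the right panel the ribonucleases, LYZ and BPI. AZU1 and ELANE are lowest at 24 h and RNASE2 and PRTN3 at 72 h. The LYZ means of the probe set used lie above the 0 h mean at every later time, though 72 h replicate 3 lies below it.

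The spread within groups followed the replicate number for several members. Replicate 3 held the highest ELANE value in 12 of 13 groups, the highest PRTN3 value in 11, AZU1 in 10 and CTSG in 9. Replicate 1 held the highest RNASE6 value in 11 of 13 groups and the highest LYZ value in 10, and replicate 3 the lowest LYZ value in 11. BPI, RNASE2 and MPO had no replicate that was highest in more than 7 of 13 groups.

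Genes that act with these proteins were followed as lists. Of 14 later-stage granule genes, 1 rose and 0 fell at 72 h with Pu27 (list median 0.13, all genes 0.04), beside 5.08% of all genes called, and 2 rose in the mean of the times, beside 3.98%. A count of 1 in a list of this size is near that share. The 1 at 72 h was MMP9, the gelatinase of tertiary granules, with group means of 6.63 with Pu27, against 5.21 in untreated cells, a rise of 1.42 ± 0.31 (adjusted p = 0.0051). In the mean MMP9 rose by 0.94 ± 0.18 (0.0013) and CAMP, the cathelicidin of specific granules, by 0.56 ± 0.12 (0.0025). MMP9 at 72 h was 0.91 ± 0.31 higher with Pu9- and 0.88 ± 0.31 higher with Pu5- than in untreated cells in value, and neither passed (adjusted p = 0.15 and 0.25).

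Of 11 genes of protease activation, granule storage and sorting, 0 rose and 1 fell at 72 h with Pu27 (median -0.05). It was LYST, the regulator of granule size that is mutated in Chediak-Higashi syndrome, which fell by 0.47 ± 0.10 (group means 10.90 with Pu27, against 11.38 in untreated cells, adjusted p = 0.0039). LYST also fell with Pu9- at 72 h, by 0.43 ± 0.10 (adjusted p = 0.025; 0.96% of all genes called). Of 8 measured transcription factors of granule genes 0 passed at 72 h with Pu27, and in the mean 1 fell, the repressor GFI1, by 0.18 ± 0.04 (adjusted p = 0.011). Among 8 measured relatives of the serine proteases CFD fell by 0.36 ± 0.11 at 72 h (0.042), and GZMA rose by 0.48 ± 0.12 in the mean (0.014). Among 19 measured lysosomal enzymes ARSB fell by 0.48 ± 0.14 at 72 h (0.034). None of 10 measured inhibitors of granule proteases and ribonucleases, 4 relatives of the ribonucleases, 5 of MPO or 5 of BPI passed with Pu27 at 72 h or in the mean. All these counts stand beside 5.08% of all genes called at 72 h and 3.98% in the mean.

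In untreated cells at 24 h against 0 h, 4 of the 10 inhibitors fell and 1 rose. CST7, cystatin F, fell by 0.78 ± 0.11 (adjusted p = 7.8e-07), CST3, cystatin C, by 0.92 ± 0.21 (0.00063), SLPI, the secreted leukocyte protease inhibitor, by 0.61 ± 0.14 (0.00071) and the ribonuclease inhibitor RNH1 by 0.54 ± 0.14 (0.0028). SERPINB8 rose by 0.75 ± 0.10 (3.9e-07). Of the storage and sorting genes 3 rose and 0 fell, among them SRGN, the proteoglycan that holds granule proteins, by 0.58 ± 0.09 (2.2e-06), and CTSC, the protease that activates the serine proteases, by 0.43 ± 0.07 (1.3e-05). The protease relatives CFD and PRSS57 fell by 1.29 ± 0.11 (2.0e-11) and 0.87 ± 0.12 (1.0e-06), 2 of 8 measured. These stand beside the 28.6% of all genes called at 24 h (14.6% lower and 14% higher). The counts of 3 storage and sorting genes and of 2 of 8 protease relatives are near the share called.

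For each member whose highest group mean was at least 6, the genes with the most similar pattern over the 13 group means were picked by Pearson's r among 10618 genes of the same minimum. They were CTBS (r = 0.990), EIF3L and RPL13A for AZU1, ZNF395 (0.974), DBP and STX10 for ELANE, FBXL19 (0.977), ABHD11 and RNASEH2C for RNASE2, and SLC75A1 (0.951), MAD1L1 and TADA3 for PRTN3. For BPI they were CERS5 (0.951), PLEKHM2 and BTG1, for LYZ PSMC3IP (0.950), RAD1 and PANK1, for CTSG ZC3HAV1 (0.938), RAC2 and ANAPC16, and for RNASE6 TNFSF10 (0.870), AMPH and ITGAM (0.858). The points share arrays and the common course of time, and r is a description.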

How the data were processed

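The authors deposited RMA log2 values per probe set for 39 arrays, in a table with controls and one without; RMA and limma are named in the submitters' processing notes, with no version given in the sources used here. Per the labels' protocols, cRNA was made from 100 ng of total RNA. RMA makes array distributions alike, so total RNA per cell is not measured, and it compresses differences of dim probe sets. The number of arrays limits the precision.

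Of 49293 probe sets without controls, 44988 had 1 gene symbol, 1832 several and 2473 none; the last 2 kinds were left out. The probe set of highest mean stood for each of 18132 genes. Tests used limma 3.58.1 (R 4.3.3), in 1 model of 13 group means (26 residual and 7.13 prior degrees of freedom), with Benjamini-Hochberg adjustment over all genes within a contrast. The code was tested on simulated data with 200 genes changed.

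The members, gene lists, tests and alternatives were chosen with earlier results of these data known. All members are named; of each list, those that passed in a mean contrast, and otherwise up to 4 with the largest mean change with Pu27, could be named. LYST at 72 h with Pu9-, CFD, ARSB and the list genes of untreated cells were chosen after their values were seen. Likeness used the 3 genes of highest r per member.

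Replicate numbers come from the labels. Deviations of same-numbered arrays correlated over 0.1 in every pair in 14 of 23 contrasts (51 of 69 pairs, r from -0.32 to 0.58, median 0.21). In the results above, the replicate block is printed beside those contrasts, the mean over times and the time dependence, where it changes a call. The closing section on processing counts it for all contrasts. These include untreated 24, 48 and 72 h against 0 h and 48 h against 24 h, which missed that correlation in at least 1 pair.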

Additional observations from a re-analysis of the deposited data

Results flagged for a closer look

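The effect of Pu27 on BPI differed between 24, 48 and 72 h in the F test of that difference (F = 18.6, adjusted p = 0.011). Relative to untreated cells it was -0.13 at 24 h, 0.54 at 48 h and 1.21 at 72 h on the log2 scale, and the effect at 72 h exceeded that at 24 h by 1.34 ± 0.22 (SE). The call was lost in 4 of 18 fits without 1 array (without Pu27 72 h replicate 2 at the highest adjusted p, 0.075; also without Pu27 24 h replicate 1, untreated 24 h replicate 3 or untreated 72 h replicate 3) and with the compared groups only (0.066). Groups of 3 arrays were too small to look for single arrays far from the rest.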

How the results depend on the processing

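The rises of RNASE6, RNASE2 and BPI with Pu27 at 72 h and in the mean of the times passed in all alternatives run. The next counts cover only the single member results that were called in the main fit or in any alternative. Over these results and settings, 657 stayed on their side of the threshold, 50 lost it, 39 gained it and no called difference changed sign. The number of members called moved as follows, and the cause was not tested. With the replicate block it was 1 in place of 0 for Pu27 against untreated cells at 48 h, for Pu5- against untreated cells in the mean (RNASE6, adjusted p = 0.035) and for Pu27 against Pu9- at 48 h, 4 in place of 2 for untreated 48 h against 0 h, 3 in place of 0 for untreated 48 h against 24 h, 3 in place of 1 for untreated 72 h against 48 h and 2 in place of 1 for the time dependence of Pu27; it also gave 3 in place of 2 for Pu27 against Pu9- (BPI, adjusted p = 0.032) and against Pu5- (RNASE6, 0.00042) in the mean, 5 in place of 4 for untreated 24 h (PRTN3, 0.014) and 3 in place of 2 for untreated 72 h against 0 h (ELANE, 0.0059). With the compared groups only it was 1 in place of 3 for Pu27 against Pu9- and against Pu5- at 72 h, 0 in place of 2 for Pu27 against Pu5- in the mean and for untreated 48 h against 0 h, and 0 in place of 1 for the time dependence of Pu27, but 5 in place of 4 for untreated 24 h (PRTN3, 0.031) and 3 in place of 2 for untreated 72 h against 0 h (ELANE, 0.014). With arrays shifted to a common median it was 1 in place of 2 for Pu27 against Pu5- in the mean and for untreated 48 h against 0 h, 2 in place of 3 for Pu27 against Pu5- at 72 h (RNASE6, 0.058) and 1 in place of 0 for untreated 48 h against 24 h (RNASE2, 0.031). In the mean, Pu27 against Pu9- had 3 in place of 2, with BPI, under the minimum of log2 5 (0.038), the ACTB covariate (0.033) and the trended prior (0.043), and Pu27 against Pu5- had 3 in place of 2, with RNASE6, under the minimum (0.045) and the covariate (0.033). For untreated 48 h against 0 h the covariate added AZU1 (0.048) and removed BPI (0.066), and the median over a gene's probe sets, and each probe set tested on its own, gave 1 in place of 2.

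Without 1 array at a time, the number called was 3 throughout for Pu27 against untreated cells at 72 h and in the mean, and 0 to 1 at 48 h. It was 2 to 3 for Pu27 against Pu9- at 72 h and in the mean, and 1 to 3 for Pu27 against Pu5- at 72 h and in the mean. In untreated cells it was 3 to 4 for 24 h, 0 to 2 for 48 h and 1 to 2 for 72 h against 0 h, 0 to 1 for 48 h against 24 h and 1 to 2 for 72 h against 48 h, and for the time dependence of Pu27 0 to 1. Counts over all genes moved more: the 922 genes called with Pu27 at 72 h were 335 to 1779 in the other settings and 513 to 720 without 1 array, the 174 with Pu9- 0 to 459 and 4 to 1200, the 141 with Pu5- 15 to 247 and 31 to 317, and the 5192 at untreated 24 h against 0 h 4401 to 11823 and 4438 to 4761. In the other settings the 722 of Pu27 in the mean were 601 to 1099, the 273 of Pu27 against Pu9- at 72 h 15 to 599, the 45 of Pu27 against Pu5- at 72 h 3 to 118, the 251 and 45 of these pairs in the mean 166 to 544 and 17 to 119, and in untreated cells the 939 at 48 h against 0 h 53 to 1759, the 2828 at 72 h against 0 h 1727 to 5633, the 4084 at 48 h against 24 h 3386 to 9010 and the 3147 at 72 h against 48 h 2267 to 6518. The RNASE6, RNASE2 and BPI calls do not extend to amounts of RNA per cell, and dim probe sets such as those of MPO and BPI have their differences compressed.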
